A study of Mus musculus with 2 samples.

Results

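The 8 genes described here, Ccr7, Fscn1, Ccl17, Ccl22, Cacnb3, Socs2, S1pr1 and Serpinb6b, were chosen by name as genes of dendritic cell maturation and migration to lymph nodes, out of 27998 genes measured. They were followed across 4 cell classes, mature dendritic cells (mature DCs), conventional dendritic cells of type 1 (cDC1) and type 2 (cDC2), and macrophages. All cells came from 2 single-cell libraries of CD11c-selected myeloid cells from the tumour microenvironment of wild-type-labelled PyMT mice on the C57BL/6N background, called replicate 1 and replicate 2. The polyoma middle T oncoprotein (PyMT) is widely used to drive mammary tumours in mice, and CD11c is an integrin chain carried by dendritic cells and many macrophages. There was 1 group of animals and no untreated or tumour-free group, so each comparison below is between cell classes of the same 2 libraries. The promoter of the transgene, the age of the mice and whether each library came from 1 animal are stated nowhere in the labels. The library was a block in the fit, so p-values measure how much class levels still varied between the 2 libraries after that block. This spread was estimated over all 7 classes in the fit and may be technical.

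A dendritic cell that takes up antigen in a tissue can mature, leave through the lymphatics and present that antigen to T cells in the draining lymph node. Ccr7 encodes the receptor that guides this journey along gradients of the chemokines CCL19 and CCL21, and fascin, the product of Fscn1, bundles actin in the long processes of the mature cell. Ccl17 and Ccl22 encode chemokines that attract T cells through the receptor CCR4. Cacnb3 encodes a beta subunit of voltage-gated calcium channels, Socs2 an inhibitor of cytokine signalling through JAK and STAT proteins, and Serpinb6b a member of the clade B family of intracellular protease inhibitors. S1pr1 encodes a receptor for sphingosine 1-phosphate, the lipid that guides lymphocytes out of lymphoid organs.

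The 2 libraries held 17369071 and 13317214 unique molecular identifiers (UMIs, which count captured RNA molecules), and 1898 and 1214 cells were kept, with medians of 5649 and 7142 UMIs per cell. Only 2 cell barcodes were shared by the libraries. Cells were assigned to a class when they held enough of a list of marker genes that included none of the 8 genes. A mature DC needed a UMI of at least 6 of 14 markers such as Il4i1, Apol7c and Traf1. This gave 40 and 24 mature DCs in replicate 1 and replicate 2, which is 2.11% and 1.98% of the cells. There were 92 and 68 cDC1, 193 and 212 cDC2, and 985 and 561 macrophages. T or NK cells, epithelial cells and fibroblasts were also numerous enough to enter the fit, with 37 and 38, 93 and 39, and 23 and 24 cells. Every one of the 14 mature DC markers was detected in mature DCs of both libraries. Their summed level was 6339 and 7080 CPM (UMIs of a gene scaled to the UMI total of the class in that library), against 907 and 975 CPM in cDC2. The marker sums in this paragraph are without TMM scaling, while later CPM values include it unless stated. Macrophage markers summed to 1024 and 524 CPM in mature DCs, against 40865 and 48941 CPM in macrophages, and the 5 B cell markers were at 0 in mature DCs. The gates used these same markers, and dendritic cells that also met the macrophage or B cell gate were left out. These marker sums therefore follow in part from the gating, and class identity was not tested apart from it. RNA free in solution was estimated at 1.28% and 1.23% of the UMIs of mature DCs. The estimate divides the epithelial marker share of mature DCs by that of barcodes too small to be cells. It takes every epithelial marker UMI in mature DCs as free RNA.

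Among the 7 classes in the fit, 7 of the 8 genes were highest in mature DCs in both libraries, and the remaining gene, S1pr1, was not. In mature DCs against cDC2, all 7 genes past the filter on low counts rose by edgeR's quasi-likelihood test at an adjusted p under 0.05, where 6.86% of the 7949 genes tested were called higher and 8.2% lower. In mature DCs against cDC1, 7 of 7 were called higher, where the background was 9.44% of genes higher and 8.6% lower. In mature DCs against macrophages, 7 of 7 were called higher, where the background was 10.1% higher and 13.7% lower. The smallest of these differences was that of Ccl17 against cDC2. The median log2 fold of all genes tested was -0.22, -0.10 and -0.39 in the 3 comparisons, so each rise stands against a slightly negative background, and DESeq2 in place of edgeR moved it to 0.00, 0.00 and -0.08. With DESeq2 all calls in the 3 comparisons split into 650 higher and 373 lower, 821 higher and 428 lower, and 943 higher and 709 lower. With edgeR they split into 545 higher and 652 lower, 750 higher and 684 lower, and 799 higher and 1089 lower. The direction of the 7 genes in these 3 comparisons was the same under every scaling tried. Both the genes and the gate markers were chosen with earlier results of these data known. The counts of 7 of 7 therefore describe the gated classes and are not an independent test.

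**Figure D1:**
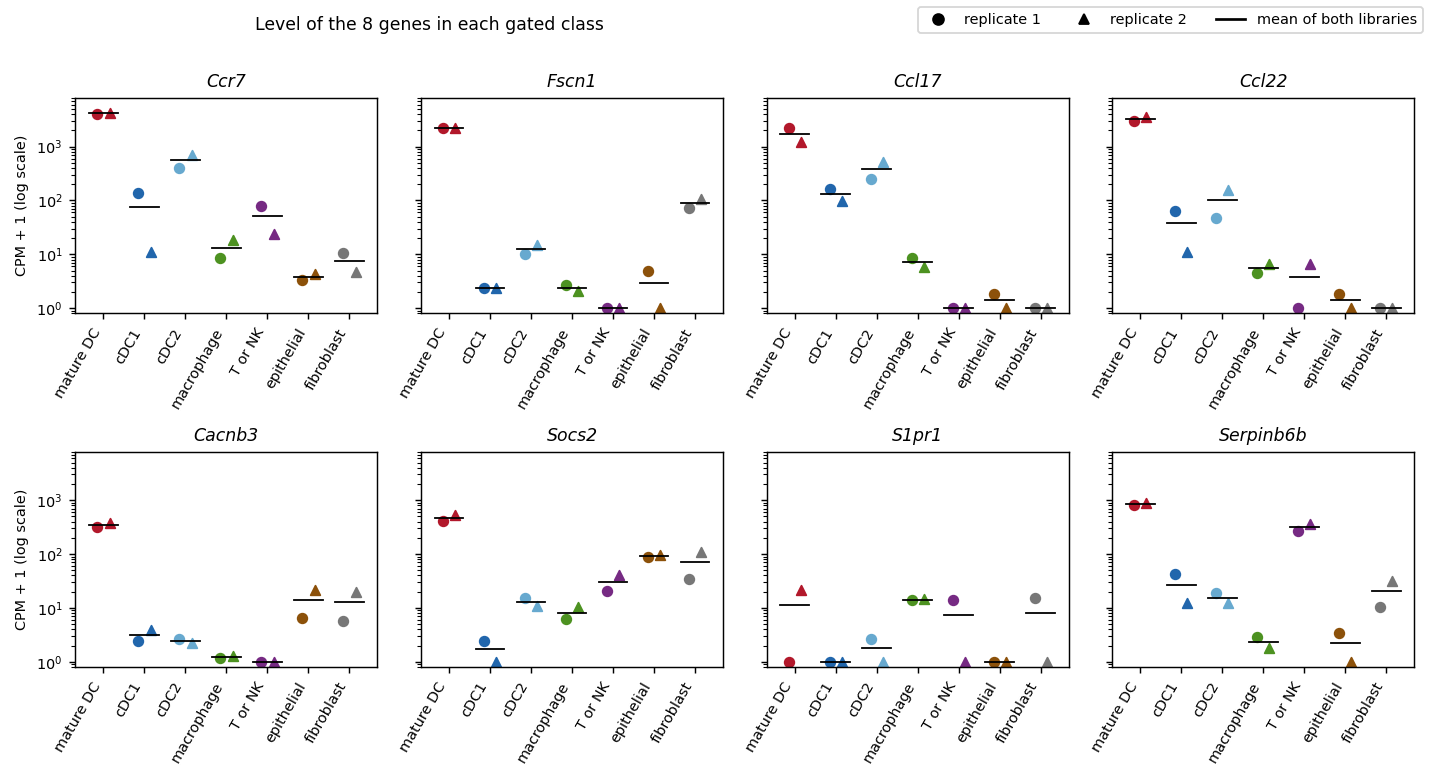
Level of each of the 8 genes (CPM plus 1, log scale) in the 7 gated classes, 1 point per library and a line at the mean. Mature DCs stand above every other class in 7 panels, and in the S1pr1 panel the macrophage points lie together at 13.0 and 13.5 CPM while the mature DC points are at 0 and 20.8 CPM.

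Ccr7, the receptor for the lymph node chemokines, had 4051 and 4286 CPM in mature DCs of replicate 1 and replicate 2. The other classes had 402 and 704 CPM (cDC2), 138 and 9.89 CPM (cDC1), and 7.53 and 17.1 CPM (macrophages). The mature DC sums lay above every other sum and cDC2 came next without overlapping any other class, whereas the range of cDC1 overlapped those of T or NK cells and macrophages. The difference between mature DCs and cDC2 was 2.91 ± 0.39 log2 units (SE; 7.49-fold; edgeR adjusted p = 1.5e-06). It was the second smallest of the 7 genes in that comparison. The few mature DCs held 1528 Ccr7 UMIs over both libraries, against 1622 UMIs in the far more numerous cDC2. Against cDC1 the log2 difference was 5.82 ± 0.47 (edgeR adjusted p = 6.38e-11), and it was 4.83 in replicate 1 and 8.20 in replicate 2. Against macrophages it was 8.44 ± 0.51 (edgeR adjusted p = 4.59e-14).

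S1pr1 was too sparse in mature DCs to be placed with or against the other genes. It had 0 and 3 UMIs in mature DCs (0 and 20.8 CPM), against 71 and 51 UMIs in macrophages (13.0 and 13.5 CPM). Over both libraries cDC2 held 2 UMIs and cDC1 and epithelial cells held none. All 3 mature DC molecules sat in 1 cell of replicate 2, so the mature DC level rested on that cell, and among the 4 classes the macrophage level was the only one carried by both libraries. S1pr1 did not pass the filter on low counts. In the fit with no such filter, macrophages exceeded cDC2 by 4.04 ± 0.73 log2 units (edgeR adjusted p = 9.98e-07 over 16443 genes), with a ratio of pooled counts of 18.6 and a 95% counting interval of 5.04 to 155. Between mature DCs and macrophages the pooled ratio was 0.616 with a 95% counting interval of 0.125 to 1.84, which spans equal levels (edgeR adjusted p = 0.856 in the fit with no filter). Over cDC2 the pooled ratio of mature DCs was 11.4 (95% counting interval 1.31 to 137, edgeR adjusted p = 0.201 in that fit). Over cDC1 the log2 difference was 6.18 ± 2.26 (edgeR adjusted p = 0.0683 in that fit). Both had the direction of the other 7 genes and neither passed. They rested on the 3 UMIs of 1 cell, which a counting interval treats as independent. At full depth 6.09% and 7.31% of macrophages held an S1pr1 UMI, while no epithelial cell of 93 and 39 did. Macrophages that carried at least 3 of 8 resident macrophage markers such as Folr2, Lyve1 and Cd163 had 20.3 and 18.4 CPM of S1pr1 without TMM scaling, against 9.90 and 11.9 CPM in the other macrophages. The resident-marker cells lay above the others in both libraries, with 5 UMIs behind the value of replicate 2. Among 11 endothelial-marked cells, too few to enter the fit, there were 7 S1pr1 UMIs, all of them in the 6 cells of replicate 2.

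Ccl17 and Ccl22, the CCR4 ligands, are neighbours on mouse chromosome 8, where the end of Ccl22 (chr8:94745590-94751699, plus strand, GRCm38) lies 58.8 kb before the start of Ccl17 (chr8:94810453-94812036, plus strand), with Cx3cl1 between them. The bases before the starts of both chemokines and of Fscn1 are shown because these 3 had the highest CPM in mature DCs among the 5 genes with a promoter entry, from RefSeq on GRCm38.p6 and ending before the first annotated base of the gene. Capitals mark matches, on either strand, to the STAT motif TTCNNNGAA, the STAT6 motif TTCNNNNGAA and the core promoter box TATAAA, and the window was also searched for the κB motif.
Ccl17, chr8:94810203-94810452, plus strand: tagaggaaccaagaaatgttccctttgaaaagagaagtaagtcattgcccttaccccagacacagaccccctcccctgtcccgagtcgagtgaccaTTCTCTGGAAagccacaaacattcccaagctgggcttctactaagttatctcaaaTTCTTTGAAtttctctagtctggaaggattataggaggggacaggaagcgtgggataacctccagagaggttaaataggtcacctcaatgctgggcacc
Ccl22, chr8:94745434-94745589, plus strand: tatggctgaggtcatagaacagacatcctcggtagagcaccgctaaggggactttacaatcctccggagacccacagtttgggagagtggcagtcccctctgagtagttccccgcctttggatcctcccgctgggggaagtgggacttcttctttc
Fscn1, chr5:142960105-142960342, plus strand: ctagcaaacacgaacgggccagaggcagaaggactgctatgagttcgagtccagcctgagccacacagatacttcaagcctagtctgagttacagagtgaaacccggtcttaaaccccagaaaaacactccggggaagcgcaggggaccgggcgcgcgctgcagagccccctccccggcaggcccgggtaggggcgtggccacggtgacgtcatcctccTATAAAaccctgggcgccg
Ccl17 held 1 STAT match and 1 STAT6 match, which do not overlap each other. Fscn1 held a match to the promoter box 31 bases before its RefSeq start, and the Ccl22 window held none of the 4 motifs. Over all 32851 promoter windows of 250 bases in the RefSeq table, 7.02% held the STAT motif, 5.85% the STAT6 motif, 12.4% the promoter box and 7.25% the κB motif. These matches are letters in a window and were not tied to binding or to the levels below. The other entries were Serpinb6b, whose window of 198 bases held no match, and Cacnb3, with no bases left before the first annotated base of the gene.

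Ccl22 was at 3010 and 3599 CPM in mature DCs, against 47.0 and 155 CPM in cDC2, 63.5 and 9.89 CPM in cDC1 and 3.49 and 5.54 CPM in macrophages. Mature DCs stood far above the rest in both libraries, while cDC1 and cDC2 changed places between the libraries. The log2 difference of mature DCs was 5.07 ± 0.37 against cDC2 (edgeR adjusted p = 1.56e-11), 6.44 ± 0.43 against cDC1 (edgeR adjusted p = 1.15e-12) and 9.51 ± 0.47 against macrophages (edgeR adjusted p = 9.01e-16). By library it was 5.92 and 4.52 against cDC2 and 5.48 and 7.95 against cDC1. Ccl17 was at 2230.5 and 1200 CPM in mature DCs, against 254 and 517 CPM in cDC2, 165 and 94.6 CPM in cDC1 and 7.53 and 4.75 CPM in macrophages. It had the widest spread of the 7 genes within mature DCs, 1715 ± 729 CPM (SD, n = 2), and the sums still did not overlap those of cDC2. Its rise over cDC2 was 2.09 ± 0.29 log2 units (4.27-fold; edgeR adjusted p = 3.14e-06), made up of 3.12 in replicate 1 and 1.21 in replicate 2. The rises over cDC1 and macrophages were 3.73 ± 0.31 and 8.07 ± 0.38 log2 units (edgeR adjusted p = 3.53e-10 and 8.98e-16).

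The chemokine molecules were unevenly spread over the mature DCs. In replicate 1 the 5 cells with most Ccl17 held 76.0% of the Ccl17 UMIs of the 40 mature DCs, and in replicate 2 they held 97.7% of those of the 24. For Ccl22 the same 2 shares were 53.6% and 78.4%, and for Ccr7 29.9% and 48.7%. The median mature DC held 1 and 0 Ccl17 UMIs and 8.5 and 6.5 Ccl22 UMIs, next to 19.5 and 20.5 Ccr7 UMIs. The highest cell had 160 and 99 Ccl17 UMIs in the 2 libraries. Mature DCs thus carried Ccr7 nearly throughout, while a few cells supplied most of the Ccl17. Of the mature DCs with a Ccl17 UMI, 91.7% and 87.5% also had a Ccl22 UMI, against 56.2% and 68.8% of those without. In cDC2 the 5 highest cells also held 73.3% and 60.7% of the Ccl17 UMIs, so the cDC2 levels rested on few cells.

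Fscn1 (chr5:142960343-142973185, plus strand, GRCm38), the actin bundler, was nearly identical in the 2 libraries of mature DCs, with 2177 CPM in each. It had 9.24 and 14.2 CPM in cDC2, 1.41 CPM in both libraries of cDC1 and 1.65 and 1.06 CPM in macrophages. Among the 7 classes in the fit, the next highest was the fibroblast class with 70.8 and 106 CPM, above cDC2 in both libraries. The 5 and 6 endothelial-marked cells, too few for the fit, held 4 and 3 Fscn1 UMIs, which is 169 and 110 CPM without TMM scaling. The rise over cDC2 was 7.50 ± 0.29 log2 units (181-fold; edgeR adjusted p = 6.31e-18). Against macrophages it was 10.49 ± 0.32 log2 units (edgeR adjusted p = 1.84e-20). cDC1 held 2 Fscn1 UMIs in all, and the ratio of pooled counts of mature DCs over cDC1 was 1543 with a 95% counting interval of 426 to 12759 (edgeR adjusted p = 4.15e-18). Over both libraries Fscn1 had 803 UMIs in mature DCs, 34 in cDC2, 2 in cDC1 and 13 in macrophages.

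Cacnb3, the calcium channel subunit, had 312 and 381 CPM in mature DCs, against 1.68 and 1.23 CPM in cDC2, 1.41 and 2.82 CPM in cDC1 and 0.18 and 0.26 CPM in macrophages. The mature DC sums lay far above the others, and the other 3 classes held 9 UMIs between them. Mature DCs exceeded cDC2 by 7.91 ± 0.46 log2 units (edgeR adjusted p = 1.37e-13). Pooled counts gave ratios of 160 over cDC1 (95% counting interval 53.5 to 787; edgeR adjusted p = 2.11e-12) and 1565 over macrophages (424 to 13069; edgeR adjusted p = 3.32e-16). Epithelial cells had 5.59 and 20.1 CPM and fibroblasts 4.72 and 18.9 CPM, ranges that overlapped each other.

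Socs2, the signalling inhibitor, had 405 and 534 CPM in mature DCs, against 14.3 and 9.85 CPM in cDC2, 5.14 and 9.24 CPM in macrophages and 1.41 and 0 CPM in cDC1. The mature DC sums were the highest, and the values of cDC2 and macrophages nearly touched. Mature DCs exceeded cDC2 by 5.32 ± 0.32 log2 units (edgeR adjusted p = 1.37e-13) and macrophages by 6.05 ± 0.30 (edgeR adjusted p = 6.37e-16). In cDC1 there was 1 UMI, and the pooled ratio of mature DCs over cDC1 was 645 with a 95% counting interval of 114 to 25643 (edgeR adjusted p = 6.96e-14). Outside the myeloid classes Socs2 was at 85.5 and 93.6 CPM in epithelial cells and 33.1 and 110 CPM in fibroblasts, both above cDC2, cDC1 and macrophages in each library.

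Serpinb6b, the protease inhibitor, had 810 and 874 CPM in mature DCs, against 17.6 and 11.1 CPM in cDC2, 40.9 and 11.3 CPM in cDC1 and 1.84 and 0.79 CPM in macrophages. T or NK cells, with 271 and 367 CPM, were the second highest class, without overlap with mature DCs above or any class below. Mature DCs exceeded cDC2 by 5.89 ± 0.32, cDC1 by 5.01 ± 0.33 and macrophages by 9.14 ± 0.37 log2 units (edgeR adjusted p = 1.45e-14, 5.15e-13 and 7.95e-18). The difference from cDC1 was 4.17 in replicate 1 and 5.78 in replicate 2. Without TMM scaling, T cell and NK cell markers summed to 4 and 6 CPM and to 24 and 32 CPM in mature DCs. In T or NK cells they summed to 930 and 1429 CPM and to 4825 and 3409 CPM. Cells meeting both gates were left out, so the low sums in mature DCs follow in part from the gating. Clade B serpins form families of similar sequence, so reads shared with a near copy could have been lost or misplaced by the authors' counting, and the level of Serpinb6b is uncertain to that extent.

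**Figure D2:**
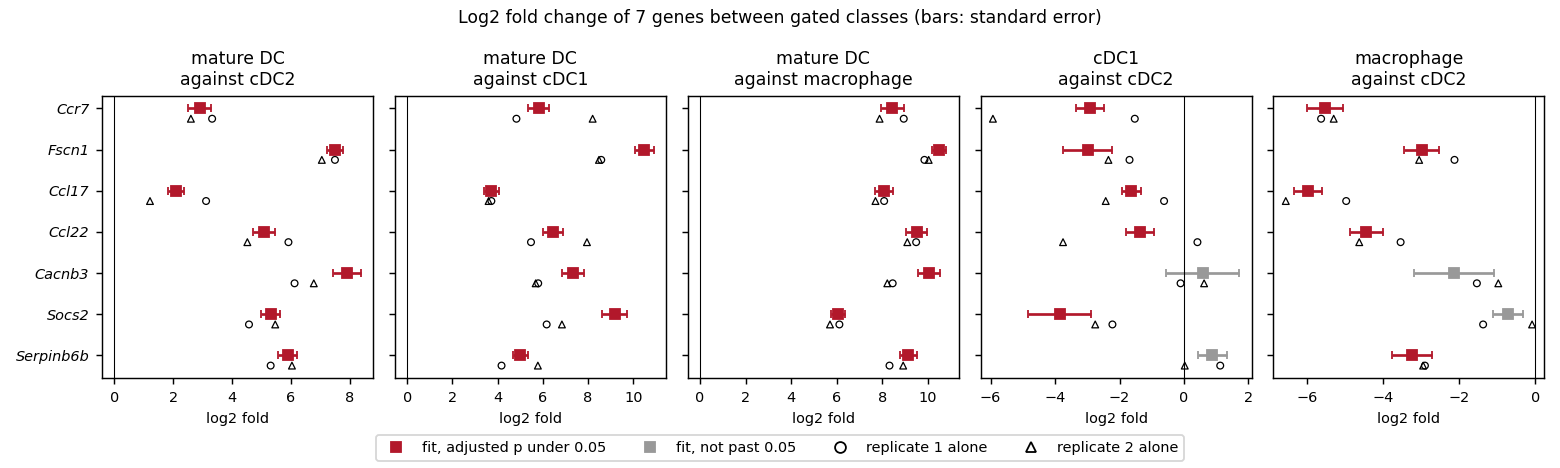
Log2 fold change of the 7 genes past the count filter in the 5 comparisons, with squares for the fit and bars for its standard error, and open symbols for each library alone. All squares of the 3 mature DC comparisons lie right of 0, and in cDC1 against cDC2 the library symbols of Ccl22 lie on both sides of 0.

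cDC1 and cDC2 also differed from each other in these genes. In cDC1 against cDC2, 5 of the 7 genes fell (Ccr7, Fscn1, Ccl17, Ccl22 and Socs2), where 8.94% of all genes were called lower and 5.25% higher. Ccr7 fell by 2.91 ± 0.45 log2 units in cDC1 (edgeR adjusted p = 1.3e-05) and Ccl17 fell by 1.63 ± 0.30 (edgeR adjusted p = 0.00021). Both sizes differed widely between the libraries: the log2 difference of Ccr7 was -1.53 in replicate 1 and -5.93 in replicate 2, and that of Ccl17 was -0.62 and -2.43. The Ccl22 call rested on replicate 2: cDC1 had 63.5 CPM against 47.0 CPM in cDC2 of replicate 1, and 9.89 CPM against 155 CPM in replicate 2. The library folds were 0.42 and -3.75 log2 units around a fitted -1.37 ± 0.44 (edgeR adjusted p = 0.0326), and without replicate 2 the direction turned. Fscn1 and Socs2 had 2 and 1 UMIs in cDC1, with pooled ratios of 0.117 (95% counting interval 0.0136 to 0.456) and 0.0602 (0.00148 to 0.360) over cDC2. The 34 Fscn1 UMIs of cDC2 sat in 3 of 193 and 6 of 212 cells, and a counting interval treats them as independent. Each of these 2 genes was called in 13 of 16 settings. Fscn1 did not pass with clusters in place of the gate (edgeR adjusted p = 0.365) or equal cells per class (edgeR adjusted p = 0.644). Its DESeq2 adjusted p was 0.0634. Cacnb3 (pooled ratio 1.49, counting interval 0.218 to 8.81) and Serpinb6b (0.88 ± 0.45 log2 units, edgeR adjusted p = 0.229) did not pass the test.

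In macrophages against cDC2, Ccr7, Fscn1, Ccl17, Ccl22 and Serpinb6b fell, 5 of the 7 genes, where 11.3% of all genes were called lower and 14.1% higher. Ccl17 fell by 5.98 ± 0.36, Ccr7 fell by 5.53 ± 0.46 and Ccl22 fell by 4.44 ± 0.44 log2 units in macrophages (edgeR adjusted p = 1.89e-13, 7.18e-11 and 3.24e-09). By library the log2 difference was -4.97 and -6.56 for Ccl17 and -3.54 and -4.63 for Ccl22. Cacnb3 and Socs2 did not pass (edgeR adjusted p = 0.147 and 0.193). Cacnb3 had 2 UMIs in macrophages, with a pooled ratio of 0.152 over cDC2 (95% counting interval 0.0138 to 1.06), and the log2 difference of Socs2 was -0.73 ± 0.39. S1pr1 alone of the 8 genes stood higher in macrophages than in cDC2. With the same number of cells drawn from each class, 2 of the 7 genes were called in cDC1 against cDC2 and 3 in macrophages against cDC2. Over all 4090 genes tested there, 312 and 411 were called in these 2 comparisons. In cDC1 against cDC2, clusters in place of the gate called 1 of 8 genes, near the share over all genes (933 of 8199). DESeq2 called 3 of 7 genes, where 894 of all 7949 were called. The 5 comparisons share class sums, so their values are given side by side and were not correlated.

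The share of cells with a UMI was also compared between classes. Every cell was thinned to 1900 UMIs so that depth did not set the counts. A Ccr7 UMI was then found in 97.5% and 100% of mature DCs, against 30.6% and 40.6% of cDC2, 5.43% and 1.47% of cDC1, 1.22% and 2.67% of macrophages, and 0 of 93 and 0 of 39 epithelial cells. Epithelial cells served as the background class, and whether they lack Ccr7 was not tested. At full depth the shares were 97.5% and 100% of mature DCs, 44.0% and 58.0% of cDC2, and 3.23% and 5.13% of epithelial cells. The cDC2 shares lay above those of epithelial cells. The macrophage shares at full depth, 3.05% and 5.17%, were close to the epithelial ones, while the Ccr7 level was 7.53 and 17.1 CPM in macrophages and 2.40 and 3.34 CPM in epithelial cells, from 41 and 65 UMIs and from 3 and 2 UMIs, so no order is read from these shares. Median depths were 6247 and 8232 UMIs in cDC2, 5256 and 6826 UMIs in macrophages and 7976 and 8760 UMIs in epithelial cells.

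Fscn1 behaved differently in cDC2. It was present in 82.5% and 75.0% of thinned mature DCs (exact 95% binomial intervals 67.2% to 92.7% and 53.3% to 90.2%), against 1.04% and 1.89% of cDC2 and 2.15% and 0% of epithelial cells. Ccl22 was present in 67.5% and 62.5% of mature DCs, against 4.66% and 7.55% of cDC2, with none in epithelial cells. Ccl17 was present in 42.5% and 20.8% of mature DCs, against 6.74% and 12.7% of cDC2, again with none in epithelial cells. The Fscn1 shares of cDC2 lay within the exact intervals of the epithelial shares, while Ccl17 in cDC2 lay above the epithelial upper limits of 3.89% and 9.03% in both libraries and Ccl22 in replicate 1 only. At the thinned depth Serpinb6b was found in 52.5% and 41.7% of mature DCs and 45.9% and 36.8% of T or NK cells, shares whose intervals overlap. Socs2 was found in 40% and 50% of mature DCs and 13.98% and 23.1% of epithelial cells, and Cacnb3 in 35% and 33.3% of mature DCs and 1.08% and 7.69% of epithelial cells. S1pr1 was found in 0 of 40 and 1 of 24 mature DCs, where the exact 95% upper limits are 8.81% and 21.1%. These intervals cover counting error only, since cells of 1 library are not replicates.

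**Figure D3:**
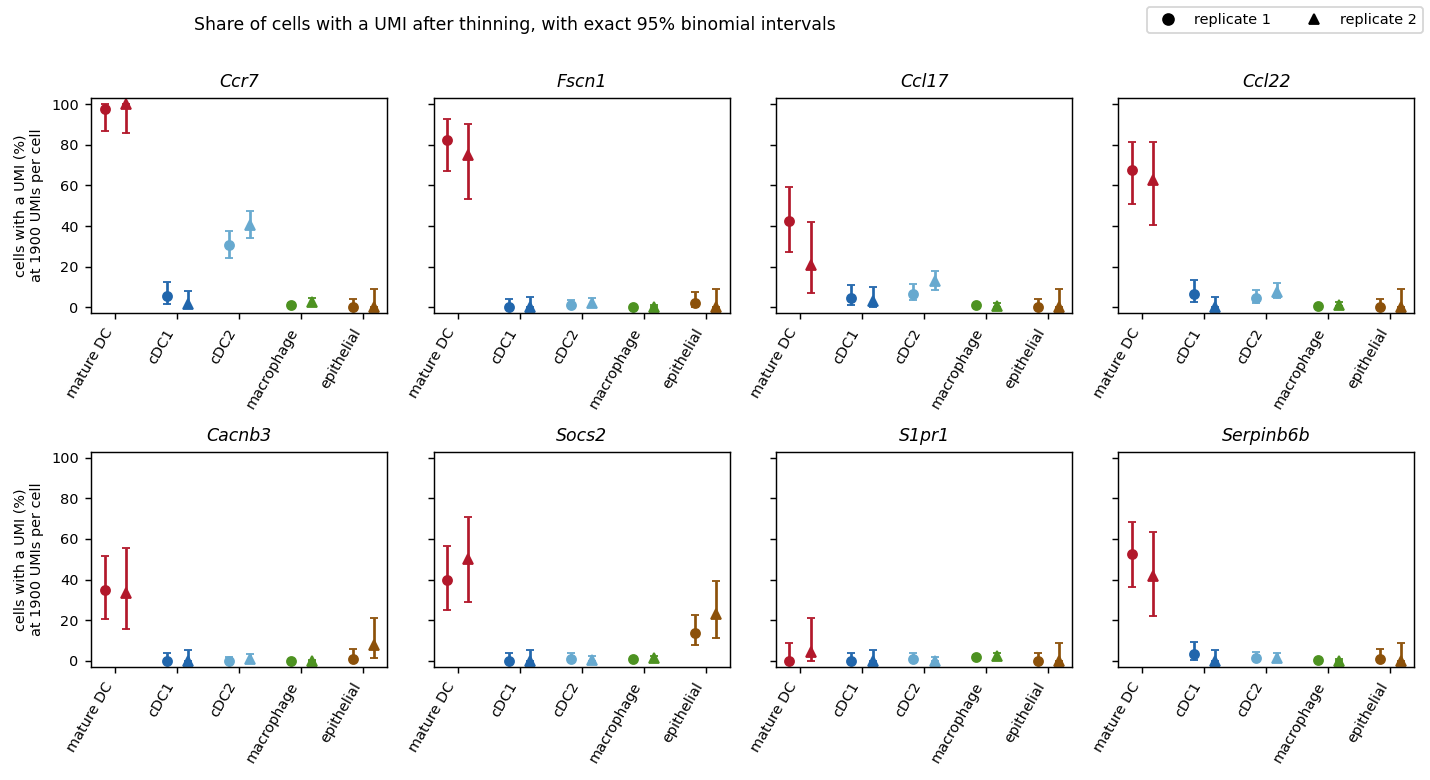
Share of cells with at least 1 UMI of each gene after thinning to 1900 UMIs, in the 4 classes and in epithelial cells, with exact 95% binomial intervals for each library. The Ccr7 panel shows cDC2 at 30.6% and 40.6%, between mature DCs and the other classes, while in the Fscn1 panel cDC2 lie at 1.04% and 1.89%.

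The genes were found together in the same mature DCs. At full depth the median mature DC held 6 of the 8 genes in replicate 1 and 5 in replicate 2, against 1 in cDC2 and 0 in cDC1 and macrophages of both libraries. At least 5 genes were found in 77.5% and 66.7% of mature DCs (52.5% and 37.5% after thinning), against 0.518% and 0.943% of cDC2 (0% and 0.472% after thinning). No cDC1 or macrophage reached 5. In replicate 1 a Ccr7 UMI was present in 39 of 40 mature DCs, and 89.7% of those cells also had Fscn1, 79.5% Socs2 and 69.2% Cacnb3. In replicate 2 all 24 had Ccr7, with Fscn1 in 79.2%, Socs2 in 75.0% and Cacnb3 in 62.5%. Since nearly every mature DC had Ccr7, these shares nearly repeat those over all mature DCs and do not measure co-detection with Ccr7. Over all 40 mature DCs of replicate 1 they were 87.5% (Fscn1), 77.5% (Socs2) and 67.5% (Cacnb3). In cDC2 the picture differed: of cells with a Ccr7 UMI, 2.35% and 4.88% had Fscn1 and 2.35% and 1.63% had Cacnb3. Most Ccr7-bearing cDC2 were thus found without Fscn1 or Cacnb3 at this depth. In replicate 1, 1 gated mature DC had none of the 8 genes. The 9 and 6 mature DCs at the marker threshold and the 7 and 5 unclassed cells 1 marker below it show how many cells the threshold decided. Over both libraries 39 further assignments, among all dendritic classes, were decided by the larger share of markers where a cell met several dendritic gates.

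Within cDC2 the levels of Ccr7 and Ccl17 differed between subsets in opposite directions when split by Cd7, while both genes were higher in cluster 3 than in cluster 13. The cDC2 with a UMI of Cd7, a marker of a subset of these cells, had 470 and 777 CPM of Ccr7 without TMM scaling, against 344 and 539 CPM in cDC2 without a Cd7 UMI. The opposite held for Ccl17, with 21.5 and 48.6 CPM in the Cd7 cells, against 294 and 629 CPM in those without. Both directions were the same in the 2 libraries, and Ccl17 in the Cd7 cells rested on 6 and 28 UMIs. These subsets were split by a gene used in the gate and were not tested. In cluster 13, a cDC2-named cluster led by Cd7 and Cyp7b1, there were 223 and 314 CPM of Ccr7 and only 1 and 0 Ccl17 UMIs. In cluster 3, the larger cDC2-named cluster led by Cd209a and Il1r2, there were 651 and 962 CPM of Ccr7 and 108 and 411 CPM of Ccl17. Outside the clusters named as dendritic cells, Ccl17 reached 135 and 53.4 CPM in cluster 1, an unnamed cluster led by Lyz1, Retnla and Ear2. Ccr7 was at 12.5 and 22.5 CPM in cluster 1. Over both libraries, 279 gated cDC2 lay in cDC2-named clusters and 113 in unnamed clusters. A further 4 lay in the mature DC cluster, 4 in the T or NK cluster and the rest in other clusters. The gated cDC2 levels and comparisons thus include cells outside the cDC2-named clusters.

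**Figure D4:**
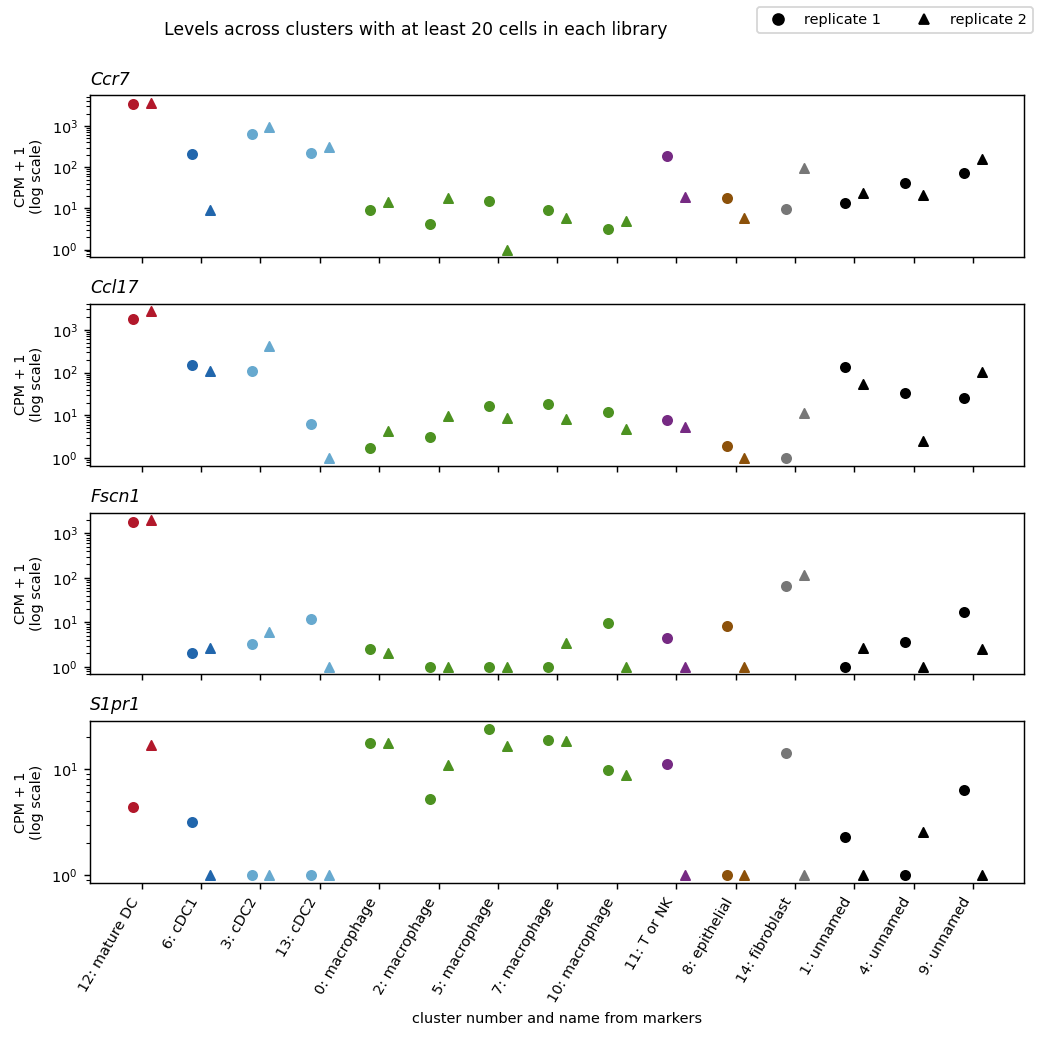
Levels of Ccr7, Ccl17, Fscn1 and S1pr1 (CPM plus 1 without TMM scaling, log scale) in the clusters with at least 20 cells in each library, coloured by the class name from markers. Ccr7 falls stepwise from the mature DC cluster to cDC2 clusters 3 and 13, and S1pr1 is at 22.9 and 15.2 CPM in macrophage cluster 5, led by resident genes, from 24 and 2 UMIs.

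Genes of related pathways, from lists that did not include the 8 genes, were read in the same fit. The list counts below stand beside these shares of all 7949 genes tested. In mature DCs, 6.86% were called higher and 8.2% lower against cDC2, 9.44% and 8.6% against cDC1, and 10.1% and 13.7% against macrophages. In cDC1 against cDC2 the shares were 5.25% higher and 8.94% lower. Of 16 tested genes of costimulation and the maturation surface, 10 rose and 1 fell in mature DCs against cDC2, with a median log2 fold of 1.36, and DESeq2 called 7 higher and 1 lower. Cd200, a surface glycoprotein that restrains myeloid cells, averaged 292 ± 9.37 CPM in mature DCs and 3.13 ± 2.69 CPM in cDC2 (SD, n = 2 each), a log2 difference of 6.58 ± 0.44 (edgeR adjusted p = 1.2e-12). Ly75, the endocytic receptor DEC-205, had 25 UMIs in mature DCs and 3 in cDC2, a pooled ratio of 63.6 (95% counting interval 19.4 to 329). Il12b, which encodes the p40 chain of interleukin 12, averaged 615 ± 13.2 CPM in mature DCs and 10.9 ± 10.7 CPM in cDC2. The other risers were Cd40, Cd80, Cd86, Cd70, Cd274, Icam1 and Il15ra, and the gene that fell was Cd48. Cd83, although a classical maturation marker, averaged 986 ± 155 CPM in mature DCs and 797 ± 189 CPM in cDC2 and did not pass (edgeR adjusted p = 0.314). Beyond the 2 genes of largest fold in each list, genes of a list are named here and below after their values were seen.

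Of 15 genes of NF-κB signalling and survival, 6 rose and none fell in mature DCs against cDC2, with a median log2 fold of 0.72. Birc2, an inhibitor of apoptosis protein, averaged 237 ± 61.0 CPM in mature DCs and 41.4 ± 5.07 CPM in cDC2 (edgeR adjusted p = 1.54e-07). Bcl2l1, which encodes the survival factor BCL-XL, averaged 63.6 ± 8.11 and 8.37 ± 4.71 CPM in the same order (edgeR adjusted p = 0.00021). Against cDC1 14 of the 15 genes rose, and Relb, a subunit of the non-canonical NF-κB complex, averaged 528 ± 66.99 CPM in mature DCs and 31.8 ± 6.96 CPM in cDC1. Against macrophages 9 rose and none fell. In cDC1 against cDC2, 12 of the 15 were lower and 1, Bcl2l1, was higher. Among the lower genes was Nfkb1, at 114 ± 47.8 CPM in cDC1 and 627 ± 70.7 CPM in cDC2.

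Among 10 tested genes of other chemokine axes, 2 rose and 3 fell in mature DCs against cDC2. Ccl5, a chemokine that attracts T cells, averaged 6904 ± 3075 CPM in mature DCs and 124 ± 81.2 CPM in cDC2, a log2 difference of 5.85 ± 0.26 (edgeR adjusted p = 5.7e-17). Ccr2, the receptor for monocyte chemokines, averaged 10.1 ± 4.54 CPM in mature DCs and 160 ± 2.07 CPM in cDC2 (edgeR adjusted p = 1.55e-06), and Ccr1 was also lower (edgeR adjusted p = 0.00401). Other receptors of the list did not pass, among them Cxcr4, at 100.5 CPM in mature DCs and 79.4 CPM in cDC2. Cx3cl1, which lies between Ccl22 and Ccl17 on the chromosome, had 3 UMIs in mature DCs and 7 in cDC2, a pooled ratio of 3.27 (95% counting interval 0.546 to 14.3), and did not pass (edgeR adjusted p = 0.527). Of 12 genes of the sphingosine 1-phosphate pathway and egress, 1 rose and 1 fell, which is near the shares over all genes (6.86% higher and 8.2% lower). Gpr183, an oxysterol receptor that positions dendritic cells, rose to 93.3 ± 24.9 CPM in mature DCs, against 42.3 ± 3.16 CPM in cDC2 (edgeR adjusted p = 0.0418). Sgpp1, a sphingosine 1-phosphate phosphatase, was at 0 UMIs in mature DCs and 64 UMIs in cDC2, at least 2.80-fold lower when mature DCs are set at a floor of 3 counts over both libraries. The remaining 10 genes did not pass.

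Of 22 genes of actin and motility, the process Fscn1 serves, 8 rose and 2 fell in mature DCs against cDC2. Over all genes 6.86% were called higher and 8.2% lower in that comparison. Cdc42ep3, an effector of the GTPase CDC42, averaged 156 ± 24.99 CPM in mature DCs and 4.79 ± 1.54 CPM in cDC2 (edgeR adjusted p = 3.88e-10). Actn1, an actin cross-linker, averaged 146 ± 29.5 and 14.1 ± 4.48 CPM in the same order (edgeR adjusted p = 3.61e-08), and the genes that fell were Rac2 and Coro1a. Of 4 tested genes of the calcium channel list, to which the product of Cacnb3 belongs, 3 rose (2 by DESeq2). These were Cacna1s, a pore-forming subunit, at 103.4 ± 67.8 CPM in mature DCs and 12.5 ± 3.72 CPM in cDC2, Gem and Rrad. Gem and Rrad encode small GTP-binding proteins that restrain such channels. Of 5 tested clade B serpins, Serpinb9 rose to 534 ± 138 CPM in mature DCs, against 31.5 ± 7.72 CPM in cDC2 (edgeR adjusted p = 1.08e-12), and the other 4 did not pass. Serpinb9, an inhibitor of granzyme B, starts 24.2 kb after the end of Serpinb6b on chromosome 13.

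Of the 13 genes of the SOCS and STAT5 list, 0 were called by edgeR in mature DCs against cDC2 and 0 by DESeq2, with 5 at an unadjusted edgeR p under 0.05, where 2073 of all 7949 genes had such a p. Against cDC1, 2 of the 13 rose, Stat5a (94.6 ± 33.0 CPM in mature DCs, 9.17 ± 8.97 CPM in cDC1) and Jak2. In antigen uptake and presentation the counts ran the other way, with 8 of 14 tested genes lower and 1 higher in mature DCs against cDC2. Lyz2, the macrophage lysozyme, averaged 288 ± 191 CPM in mature DCs and 4807 ± 1012 CPM in cDC2 (edgeR adjusted p = 3.07e-10), and Fcgr2b, an inhibitory Fc receptor, 28.5 ± 8.78 CPM and 235 ± 56.9 CPM in the same order. Of that list 7 genes were lower in mature DCs against cDC1 and 10 against macrophages. DESeq2 called 6 lower against cDC2, 4 against cDC1 and 8 against macrophages, and none higher. Because cells were gated on other genes of the same cells, these tests describe the gated classes and not a treatment.

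**Figure D5:**
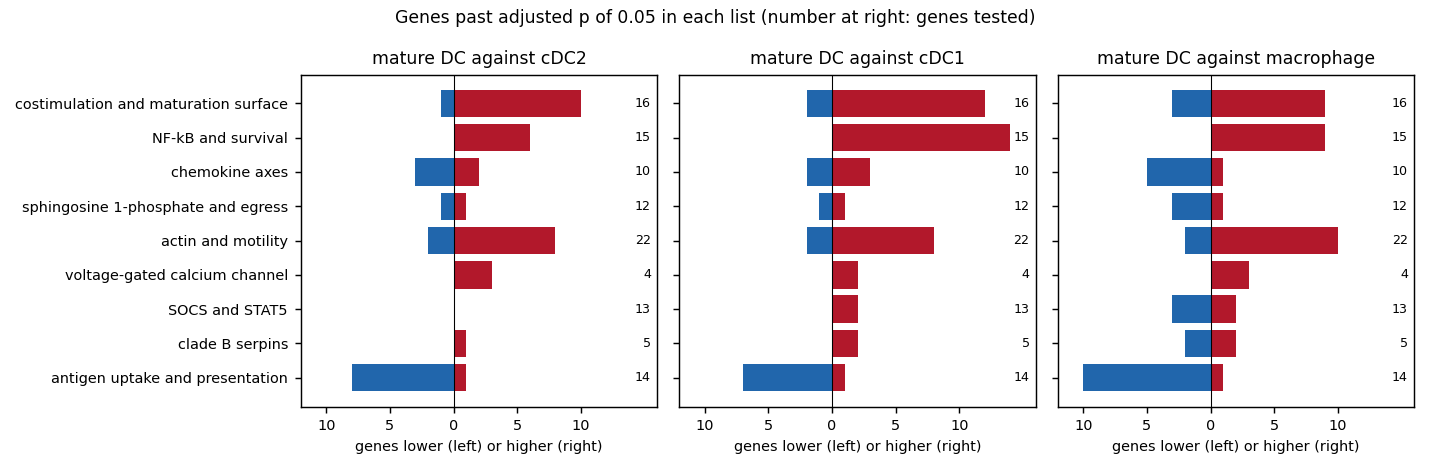
Number of genes of each list called lower (left of 0) or higher (right of 0) in mature DCs against cDC2, cDC1 and macrophages, with the number tested printed at the right edge. The costimulation and NF-κB lists point mostly right in the 3 panels and the antigen uptake list points left, with 8, 7 and 10 genes lower.

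The genes whose levels most resembled those of each of the 7 genes were sought by Pearson's r of log2 CPM over the 14 sums of class and library, among 6385 genes. These values are a description over sums that share libraries. Serpinb6b was most like its neighbour Serpinb9 (r = 0.98), with Rabgap1l (0.945) and Tnfrsf4 (0.924) next. Ccl17 was most like Tspo (0.968), Ccl22 like Lactb (0.951), Cacnb3 like Adcy6 (0.938), Fscn1 like Rgs12 (0.935), Ccr7 like Spib (0.916) and Socs2 like Csnk1g1 (0.898). Lactb was also second for Ccr7 (0.913), and no other gene was among the first 3 of more than 1 member.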

How the data were processed

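Per the labels' protocols, cells were captured with the Chromium 3' version 2 chemistry. The deposited files hold unnormalized UMI counts for every gene in every barcode, which the authors made with Cell Ranger 2.2.0 on mm10, per the submitters' processing notes. The annotation release is not given in the sources used here. Cells were called by the Cell Ranger rule for 3000 expected cells (thresholds 2112 and 1905 UMIs), with at least 200 genes and at most 10% mitochondrial UMIs. The cells with the highest Scrublet doublet scores, 32 and 14, were dropped (scanpy 1.11.5). Their number was set by an assumed doublet rate of 0.8% per 1000 cells. Gates needed 4 of 10 markers for cDC1 and cDC2 and 6 of 10 for macrophages. A cell meeting several dendritic gates went to the class with the larger share of its own markers; other conflicts were left out (109 and 42 cells).

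Counts were summed per library and class and compared with edgeR 4.0.16 (filterByExpr, TMM, quasi-likelihood, Benjamini-Hochberg over 7949 genes that were no gate marker), with 14 sums, 7 classes and 6 residual degrees of freedom. The library was a block, because classes of a library share 1 capture. CPM is TMM-scaled unless stated, with SDs over 2 libraries. In 3' counting gene length does not enter CPM. List genes were named by a rule: up to 2 per list and comparison, of largest absolute fold, called and of equal sign in the libraries. Members, lists and markers were chosen with earlier results of these data known. Gene positions come from GENCODE M21, where the 8 genes overlap no other gene. Some genes of the lists are not reported here by name. Alternatives are given in the closing section.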

Additional observations from a re-analysis of the deposited data

How the results depend on the processing

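In the 3 mature DC comparisons the 7 genes were called higher under all 15 alternatives with a test, the highest adjusted p being 0.0193 (Ccr7 against cDC2). Drawing equal cells per class left 4090 genes tested and called 525, 723 and 975 genes in mature DCs against cDC2, cDC1 and macrophages, 312 in cDC1 against cDC2 and 411 in macrophages against cDC2. Members called fell to 2 in cDC1 against cDC2 and to 3 in macrophages against cDC2, and the log2 folds of Cacnb3 in cDC1 against cDC2 (-2.86) and of Serpinb6b in macrophages against cDC2 (0.00297) changed sign. In cDC1 against cDC2, 1 of 8 members was called with clusters in place of the gate, where 933 of 8199 genes were called. Without cycling cells 3 of 7 members were called, where 906 of 7413 genes were. With DESeq2 3 of 7 members were called, where 894 of 7949 genes were. The cause was not tested. Ccl22 in that comparison was called in 7 of 16 settings, and its log2 fold was -3.75 without replicate 1 and 0.42 without replicate 2. With no replicate block, genes called were 1027, 1255, 1689, 830 and 1490, and Ccl22 in cDC1 against cDC2 was the 1 member whose call was lost. The share of mature DCs with a Ccr7 UMI was 93.2% with the looser gate; that with Fscn1 was 68.8% with the looser and 90.0% with the stricter gate. For Ccr7 in cDC2 it was 43.2% with clusters and 51.0% with no thinning, and for S1pr1 in macrophages 2.66% and 6.7%. Leaving out 1 library gave 97.5% to 100% (Ccr7, mature DCs), 75.0% to 82.5% (Fscn1), 30.6% to 40.6% (Ccr7, cDC2) and 2.03% to 2.32% (S1pr1). Leaving out macrophages with resident markers, an alternative chosen after seeing the data, changed no member's call. S1pr1 was limited by depth, with 3 UMIs in mature DCs, and its log2 fold in cDC1 against cDC2 was 3.39 with clusters, against -2.95 in the fit with no filter.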
